A study of Mus musculus with 12 samples.

Results

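The genes described here build and drive motile cilia. They were chosen by name: every probe set with exactly 1 gene symbol that is Foxj1 or begins with Dnah, Dnai, Dnal, Dnaaf, Rsph, Tekt or Cfap, with the probe set of the highest mean over the arrays kept for each gene. The rule matched 118 probe sets and gave 68 genes of the 19938 named genes on the array. Of these, 66 had a mean log2 level above 5 and were tested, and Cfap97d1 (mean 4.62) and Dnaaf6 (mean 4.18) were not. By role they comprised Foxj1, 9 outer dynein arm chains, 10 inner dynein arm chains, 7 dynein assembly factors, 5 radial spoke proteins, 5 tektins and 31 Cfap genes. Another 7 probe sets carried a member's name beside another gene's and were left out.

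RNA was measured from each side of the main olfactory epithelium (MOE) after unilateral naris occlusion (UNO), on 12 Affymetrix Mouse Gene 1.0 ST arrays. The 4 groups, with 3 samples each, were the closed and the open side of H2be-KO mice and the closed and the open side of WT mice. In H2be-KO mice the coding sequence of the histone variant gene H2be is replaced by sequence encoding GAP43-mCherry, a membrane-bound red fluorescent protein, in a line crossed to C57Bl/6. In every mouse the right nostril was sealed by electrocautery at 14 days of age and kept shut for 3 weeks, so closed against open cannot be told apart from right against left. The titles give an age of 5 weeks and the age tag gives 6 months. The design text gives 2 mice in each sample, 1 female and 1 male, and the legends of the study give 4. Each array reads a pool of mice, and the p-values measure the spread between such pools. Every operated mouse has a closed and an open side, so closed and open pools may share animals. The main fit took the 12 arrays as independent.

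A motile cilium has a ring of doublet microtubules around a central pair. Outer and inner dynein arms on the doublets slide them against each other, radial spokes pass signals from the central pair to the arms, and assembly factors preload the arms in the cytoplasm. Foxj1 is the transcription factor that switches on this set of genes in multiciliated cells, together with RFX factors such as Rfx3. In the nose such cells line the respiratory epithelium, whereas olfactory neurons carry immotile sensory cilia that lack dynein arms. Some of the genes named here are also known from sperm flagella (Dnah8, Dnah17, Rsph6a, Tekt3, Tekt5), and Cfap69 is known from olfactory neuron cilia in mice.

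Array medians lay between 7.21 and 7.30 on the log2 scale, and arrays correlated with r from 0.965 to 0.978 within groups and from 0.964 to 0.978 between groups. H2be (H2bc21 in current names) measured 11.41 to 11.46 in KO closed, 11.31 to 11.33 in KO open, 11.68 to 11.75 in WT closed and 11.55 to 11.62 in WT open samples. The positions of its probes are not given in the sources used here, so this level does not check the replaced coding sequence. Taken as a sum over the list, though not each by itself, markers of mature olfactory neurons did not overlap between sides in either genotype. Their levels summed to 37233 to 37529 in KO closed, 31392 to 33202 in KO open, 35407 to 37229 in WT closed and 31883 to 32246 in WT open samples (linear scale, 12 of 12 tested). In such bulk tissue, fewer cells of a type and less RNA per cell cannot be told apart.

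The promoters of these genes are shown first, because a short motif recurred in them. RefSeq (GRCm38.p6) held a promoter window for 57 of the 68 genes, and the 250 bases before each start were searched, on both strands except where stated. The motif GTTGCTA, of the kind bound by RFX factors, was found for 15 of the 57 genes (26.3%), against 3.71% of all 27025 genes with a window. A second RFX-type motif, GTTGCC, which shares its first letters, was found for 18 of the 57 (31.6%), against 11.8% of all genes. At least 1 of the 2 was present for 28 of the 57 genes (49.1%), against 14.7% of all genes. Dnah7a, Dnah7b and Dnah7c, close copies with much alike windows, each held both motifs and were counted as separate genes. The forkhead-type motif TGTTTG was found for 15.8% of these genes and 18% of all genes, and TGTTTAC for 7.02% and 3.54%. The complete RFX motif known as the X-box was searched in the direction of the gene only. It matched for 3 genes (5.26%), against 0.962% of all genes. Sites on the other strand were not counted, so both shares are lower limits. Dnaic2 was not among the 3, and whether it holds an X-box on the other strand was not tested. Below are the whole upstream window of Dnaic2 (chr11:114727169-114727418, plus strand) and 60 bases from those of Rsph14 (chr10:75032587-75032646, minus), Cfap69 (chr5:5664233-5664292, minus), Dnah5 (chr15:28203638-28203697, plus) and Dnah6 (chr6:73221632-73221691, minus). They read 5′ to 3′ in the direction of the gene, with both RFX-type motifs in capitals (TAGCAAC and GGCAAC are their complements). Dnaic2 and Rsph14 are the members that differed between sides, Cfap69 separated the sides on every array, and Dnah5 and Dnah6 were among those that followed the other members most closely from array to array. All 5 were picked among genes that hold the motif, and Dnah9 and Dnaaf3, which also followed the others closely, and Cfap47, which separated the sides like Cfap69, held neither RFX-type motif in their windows.
Dnaic2: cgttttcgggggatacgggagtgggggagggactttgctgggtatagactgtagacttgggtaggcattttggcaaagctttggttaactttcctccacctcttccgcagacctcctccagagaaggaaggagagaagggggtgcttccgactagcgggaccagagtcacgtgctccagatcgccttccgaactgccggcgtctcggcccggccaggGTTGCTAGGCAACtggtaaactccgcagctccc
Rsph14: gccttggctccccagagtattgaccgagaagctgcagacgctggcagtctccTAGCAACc
Cfap69: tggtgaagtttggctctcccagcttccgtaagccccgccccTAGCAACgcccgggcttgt
Dnah5: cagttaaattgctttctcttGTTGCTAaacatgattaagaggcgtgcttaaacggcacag
Dnah6: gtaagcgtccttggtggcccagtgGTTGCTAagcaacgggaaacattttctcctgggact
In Dnaic2 the 2 motifs adjoin as GTTGCTAGGCAAC, just before a start that lies inside the annotated span of the gene. In Rsph14 the motif begins 8 bases before the start, in Cfap69 19 and in Dnah6 36, and in Dnah5 it lies farther out, at 108. A match is a description of letters and says nothing of binding.

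Dnaic2 (Dnai2 in current human names), an intermediate chain that holds the outer dynein arm together, was the member that stood apart between the closed and the open side. Its log2 levels were 9.16, 8.98 and 8.95 in KO closed samples, against 8.34, 8.24 and 8.43 in KO open samples. In WT closed samples they were 9.14, 8.84 and 8.88, against 8.48, 8.25 and 8.30 in WT open samples. Every closed array lay above every open array in both genotypes. Dnaic2 rose by 0.69 in KO (SE 0.11, adjusted p = 0.0119, limma) and by 0.61 in WT (SE 0.11, adjusted p = 0.0265, limma). Over both genotypes the difference was 0.65 (95% interval 0.48 to 0.82, adjusted p = 0.000686, limma), or 1.57-fold. The difference between the genotypes in this effect was 0.08 (95% interval -0.26 to 0.42, adjusted p = 1, limma). The call over both genotypes was kept in every alternative run, with adjusted p from 1.13e-07 to 0.00672. The WT call was lost without any 1 of the 6 WT arrays or KO open 1, and the KO call without KO closed 1, KO open 1 or KO open 2, with adjusted p up to 0.126 and 0.0658.

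The genes beside Dnaic2 on chromosome 11 also differed between sides, and not in 1 direction. Ttyh2, a chloride channel family gene next to it, had levels of 8.52, 8.44 and 8.44 in KO closed and 7.90, 7.85 and 7.87 in KO open samples. In WT closed samples it had 8.38, 8.39 and 8.26, and in WT open samples 7.86, 7.86 and 7.93. The closed arrays lay above the open ones in both genotypes, and the rise over both was 0.53 (SE 0.055, adjusted p = 0.000274, limma). Kif19a, a kinesin that limits the length of motile cilia in mice, fell by 0.35 over both genotypes (SE 0.071, adjusted p = 0.0221, limma), and leaving out KO closed 2 or 3, KO open 1 or 3, WT closed 2 or 3, or WT open 1 or 3 ended that call (adjusted p up to 0.0691). Whether probes for Dnaic2 read transcripts from the Ttyh2 side was not tested.

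Rsph14, a radial spoke protein, was the other member that rose, over both genotypes only. Its levels were 8.10, 8.18 and 8.29 in KO closed samples, against 7.65, 7.70 and 7.96 in KO open samples. In WT closed samples they were 8.20, 8.14 and 8.21, against 7.63, 7.83 and 8.04 in WT open samples. The sides did not overlap in either genotype, although WT open 3 came within reach of the lowest closed array. Over both genotypes Rsph14 was higher by 0.38 (95% interval 0.20 to 0.57, adjusted p = 0.0317, limma), or 1.30-fold. The separate effects were 0.42 in KO (adjusted p = 0.179, limma) and 0.35 in WT (adjusted p = 0.314, limma), and their difference was 0.07 (95% interval -0.30 to 0.44, adjusted p = 1, limma). Gnaz, a G protein gene that overlaps Rsph14, differed by 0.08 (adjusted p = 0.756, limma). The call was lost without any 1 of 9 arrays, all but KO closed 1, KO open 3 and WT open 3, with adjusted p up to 0.0938.

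**Figure D1:**
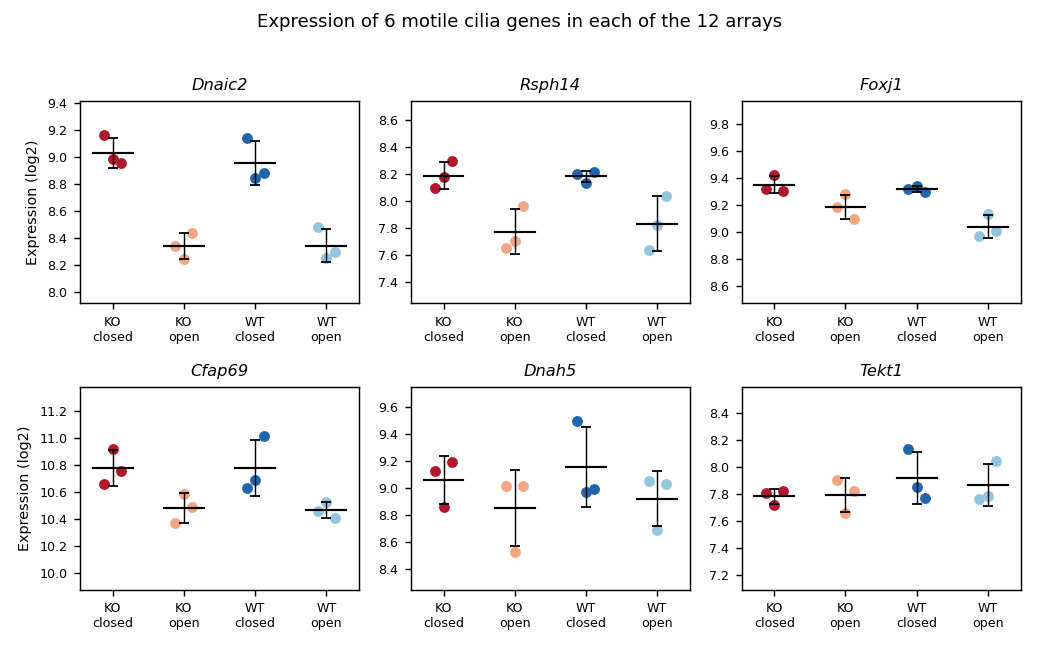
Log2 expression of 6 motile cilia genes (vertical axis, each panel spanning the same range around its own mean) in the KO closed, KO open, WT closed and WT open groups. Points are arrays, lines are group means and bars are ± 1 SD (n = 3), and the closed arrays of Dnaic2, Rsph14, Foxj1 and Cfap69 lie above the open ones in both genotypes while those of Dnah5 and Tekt1 overlap.

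Of the 66 genes tested, 1 was called in KO and 1 in WT (Dnaic2 each time), and 2 over both genotypes (Dnaic2 and Rsph14). All calls were higher on the closed side. Among all 32615 probe sets tested, 0.705% were called higher in KO, 0.475% in WT and 1.66% over both genotypes (1.05%, 0.855% and 2.9% in either direction). Counts of 1 or 2 of 66 lie near this background and are no result about the members as a list. At an unadjusted p under 0.05, 7 members passed in KO (10.6%), 11 in WT (16.7%) and 15 over both genotypes (22.7%), against 10.5%, 9.34% and 13.2% of all probe sets, so the KO share was that of the background.

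Most changes of the 66 members, called or not, were small and above 0. Their median change was 0.08 in KO, 0.13 in WT and 0.11 over both, against 0.02, -0.01 and 0.00 for all probe sets on the log2 scale. The change was above 0 for 54 of 66 members in KO (81.8%), 52 in WT (78.8%) and 53 over both (80.3%), against 54.9%, 46.8% and 50.9% of all probe sets. Members share arrays and are not replicates, so no test is given. Over both genotypes, 65 of 66 changes were smaller than 0.5, and for 56 of them the whole 95% interval lay within 0.5 of 0. With 1 array left out, the KO median was 0.05 (without KO open 2) to 0.15 (without KO open 3), and the WT median was 0.07 (without WT closed 1) to 0.16. The median over both was 0.07 without KO open 2 or without WT closed 1, and 0.05 without both, a setting chosen after seeing the data.

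**Figure D2:**
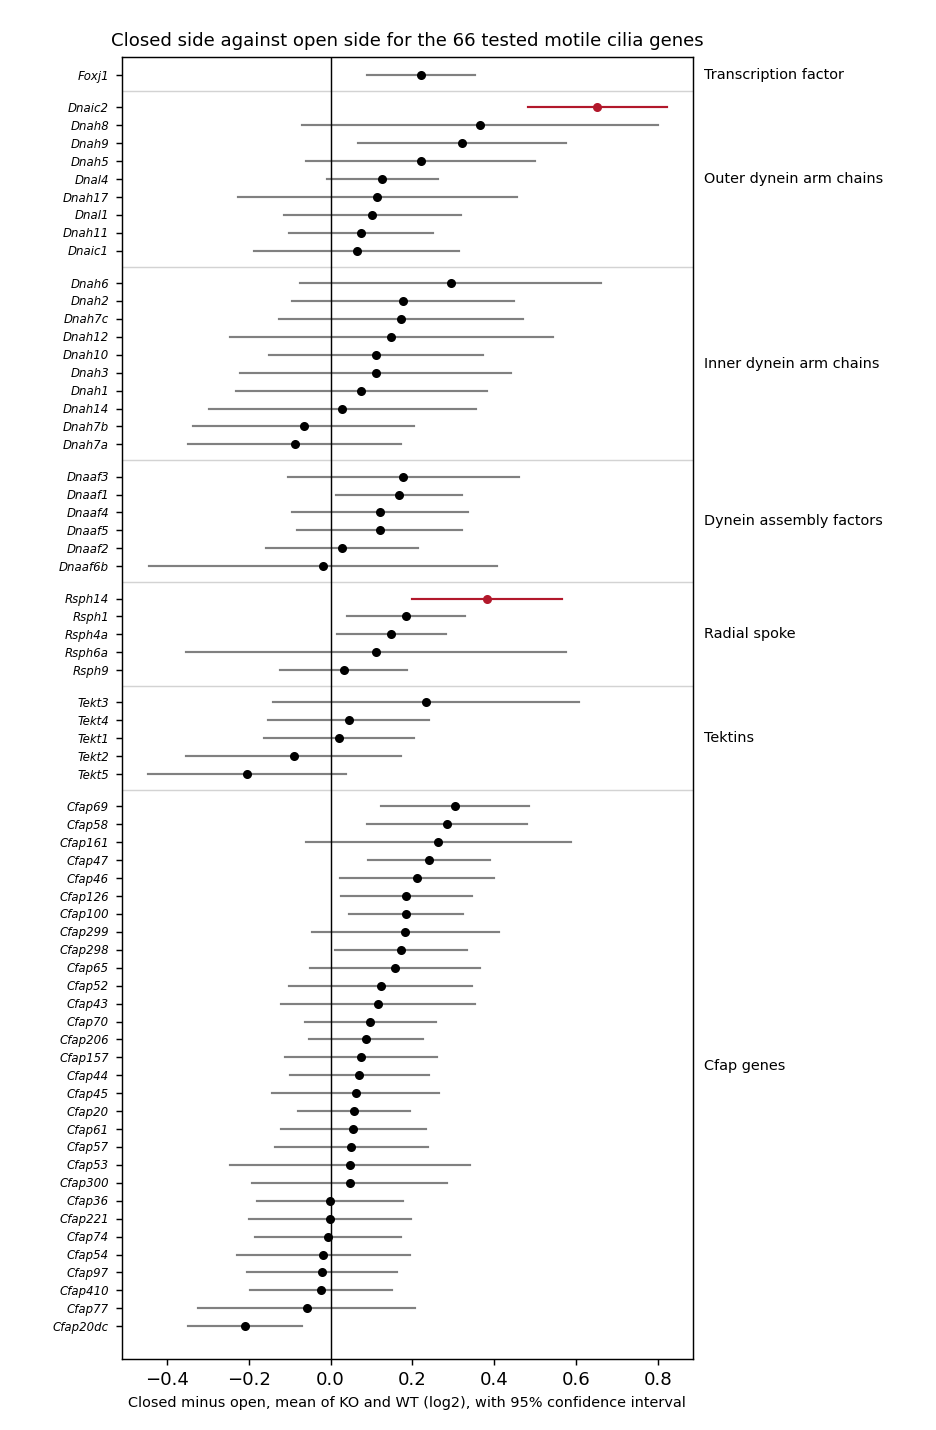
Closed minus open difference (horizontal axis, log2, mean of KO and WT) for each of the 66 tested genes, grouped by role. Points are estimates and lines are 95% confidence intervals, with Dnaic2 (0.65) and Rsph14 (0.38), the genes called over both genotypes, in red. Most other points lie slightly right of 0, and most of their intervals cross it.

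Foxj1 came close to the threshold without passing it. Its levels were 9.32, 9.42 and 9.30 in KO closed and 9.18, 9.28 and 9.10 in KO open samples. They were 9.32, 9.34 and 9.29 in WT closed and 8.97, 9.14 and 9.01 in WT open samples. The closed arrays were above the open arrays in each genotype, narrowly so in KO. The difference was 0.22 over both genotypes (SE 0.060, adjusted p = 0.0843, 0.00325 unadjusted, limma), 0.16 in KO and 0.28 in WT. It passed with only probe sets above a mean of 7 or with trend and robust fitting, where 5 members were called: Dnaic2, Rsph14, Foxj1, Cfap69 and Cfap47.

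All 9 outer dynein arm chains had a positive change over both genotypes, and Dnaic2 was the one called. Dnah5, a heavy chain that is the motor of the outer arm, had 9.13, 8.86 and 9.20 in KO closed and 9.02, 8.53 and 9.02 in KO open samples. In WT closed samples it had 9.50, 8.97 and 8.996, and in WT open samples 9.05, 8.69 and 9.03. The sides overlapped in both genotypes, with WT closed 1 highest and KO open 2 lowest, and the difference was 0.22 (SE 0.13, adjusted p = 0.528, limma). Dnah9, its partner heavy chain in the distal cilium, differed by 0.32 (adjusted p = 0.227, limma) and Dnah11, the proximal one, by 0.07 (adjusted p = 0.79, limma). Dnaic1, the intermediate chain that pairs with Dnaic2, differed by 0.06 (SE 0.11, adjusted p = 0.89, limma). The light chains Dnal1 and Dnal4 differed by 0.10 and 0.13.

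No inner arm chain was called, and 8 of 10 changes were positive (median 0.11). Dnah3 and Dnah6, heavy chains of single-headed inner arms, differed by 0.11 (SE 0.15, adjusted p = 0.848, limma) and 0.29 (SE 0.17, adjusted p = 0.519, limma). Dnah3 alone had 33 probe sets, of which 32 had a positive change, from -0.22 to 0.27, and 0 were called. All 5 probe sets of Dnah10 were positive (0.11 to 0.30). These probe sets read the same RNA on the same arrays and do not add replicates. Dnah7a, Dnah7b and Dnah7c are close copies whose probes may cross-read, and they had changes of -0.09, -0.07 and 0.17. Probe sets shared by all these copies gave 0.20 and 0.03, and another probe set of Dnah7b gave 0.04.

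No assembly factor was called either. Dnaaf2, which helps fold dynein heavy chains, differed by 0.03 (adjusted p = 0.942, limma) and Dnaaf1, a leucine-rich repeat factor, by 0.17 (adjusted p = 0.325, limma). The 2 probe sets shared by Dnaaf2 and Rpl36al gave -0.01 and 0.00. Dnaaf6 lay below the filter and ranged widely from array to array, between 1.70 and 5.55.

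All 5 radial spoke genes had a positive change over both genotypes (median 0.15). The 2 probe sets shared by Rsph3b and Rsph3a, which are not among the 5, gave -0.07 and -0.04. Rsph4a and Rsph1, parts of the spoke head, differed by 0.15 (adjusted p = 0.308, limma) and 0.18 (adjusted p = 0.216, limma). Rsph9, another head protein, differed by 0.03 (adjusted p = 0.917, limma). Rsph6a, a spoke head gene of sperm, had 7.15, 7.89 and 7.07 in KO closed, 7.30, 7.60 and 7.19 in KO open, 7.06, 7.88 and 7.33 in WT closed and 6.87, 7.85 and 6.90 in WT open samples. It was highest in the sample numbered 2 of every group, whichever side or genotype.

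The tektins, filament proteins inside the doublet wall, were the role with the smallest median change (0.02 over both genotypes). Tekt1 differed by 0.02 (SE 0.084, adjusted p = 0.958, limma) and Tekt4 by 0.04 (adjusted p = 0.906, limma). Tekt5, known from sperm, differed by -0.20 (SE 0.11, adjusted p = 0.487, limma).

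Among 30 tested Cfap genes none was called, 22 had a positive change and the median was 0.07. Cfap69 had 10.66, 10.92 and 10.75 in KO closed, against 10.36, 10.59 and 10.49 in KO open samples. In WT closed samples it had 10.63, 10.69 and 11.01, against 10.46, 10.52 and 10.41 in WT open samples. The sides did not overlap in either genotype, and the difference was 0.30 (SE 0.082, adjusted p = 0.0854, limma). Cfap47, an X-linked gene of the axoneme, had 8.68, 8.61 and 8.61 in KO closed and 8.30, 8.24 and 8.58 in KO open, and 8.73, 8.81 and 8.74 in WT closed and 8.58, 8.52 and 8.51 in WT open samples (difference 0.24, adjusted p = 0.1, limma). Its arrays parted by side in the same way, with KO open 3 just below the closed ones. Cfap44, an axonemal protein needed in sperm tails, differed by 0.07 (adjusted p = 0.793, limma). Cfap20dc ran the other way, with 8.51, 8.47 and 8.42 in KO closed, 8.62, 8.63 and 8.76 in KO open, 8.67, 8.56 and 8.44 in WT closed and 8.76, 8.86 and 8.69 in WT open samples (difference -0.21, adjusted p = 0.131, limma). In all, 5 of 66 members had every closed array above every open array in both genotypes (Dnaic2, Rsph14, Foxj1, Cfap69 and Cfap47), against 2.66% of all probe sets, and 1 of 66 had the reverse (Cfap20dc), against 2.16%.

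Loss of H2be was not accompanied by a called difference in any member. On the closed side 0 of 66 were called between KO and WT (0.0245% of all probe sets) and 2 had an unadjusted p under 0.05, Cfap46 and Tekt5 (3.03%, against 4.26% of all). On the open side 0 of 66 were called (0.0215% of all) and 2 had an unadjusted p under 0.05, Cfap46 and Cfap100 (3.03%, against 6.67% of all). For the difference between genotypes in the side effect, 0 of 66 members were called, 0 had an unadjusted p under 0.05 (4.01% of all had), and 0% of all probe sets were called (limma throughout). The 95% intervals lay within 0.5 of 0 for 46 members on the closed side, 51 on the open side and 29 for the difference of effects, and for the other members they reached beyond it.

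Cfap46, a central pair projection protein, had the lowest p for genotype on both sides. On the closed side it had 8.41, 8.68 and 8.28 in KO and 8.22, 7.87 and 7.95 in WT samples. On the open side it had 8.24, 8.28 and 8.14 in KO and 7.88, 7.75 and 7.86 in WT samples. Every KO array lay above every WT array of its side, and the KO minus WT difference was 0.45 for closed samples (SE 0.12, unadjusted p = 0.00339, adjusted p = 0.999, limma) and 0.39 for open samples (SE 0.12, unadjusted p = 0.0079, adjusted p = 0.658, limma). A second probe set of the gene did not repeat this on the closed side, with means of 7.47 ± 0.083 in KO and 7.50 ± 0.17 in WT samples (SD, n = 3 each). On the open side it ran in the same direction, with 7.43 ± 0.11 in KO and 7.29 ± 0.042 in WT samples (SD, n = 3 each, difference 0.15, adjusted p = 0.863, limma). Tekt5 and Cfap221, a central apparatus gene, differed by -0.39 and -0.25 between KO and WT on the closed side. On the open side Cfap100, a dynein-regulating protein in algae, differed by -0.28 and Dnaaf1 by 0.20. For the difference of side effects the lowest p-values belonged to Tekt4 (0.35), Cfap100 (0.24) and Tekt5 (-0.35), with adjusted p of 1 each (limma).

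The members varied together between arrays of the same group more than probe sets in general. After group means were removed, their mean pairwise r over the 12 arrays was 0.12, against 0.01 for all probe sets, and it was 0.34 among inner arm chains and 0.33 among outer arm chains but -0.10 among radial spoke genes. These are correlations across genes that share the same libraries and have no p. The genes that followed the mean of the other members most closely were Dnah6 (r = 0.91), Cfap65 (0.91), Dnah3 (0.91), Dnaaf3 (0.90), Dnah9 (0.90) and Dnah5 (0.90), and 4 of these 6 are dynein heavy chains. Rsph6a (-0.76), Foxj1 (-0.71) and Cfap206 (-0.70) ran against it, and the within-group SD of Foxj1 was small (0.071).

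**Figure D3:**
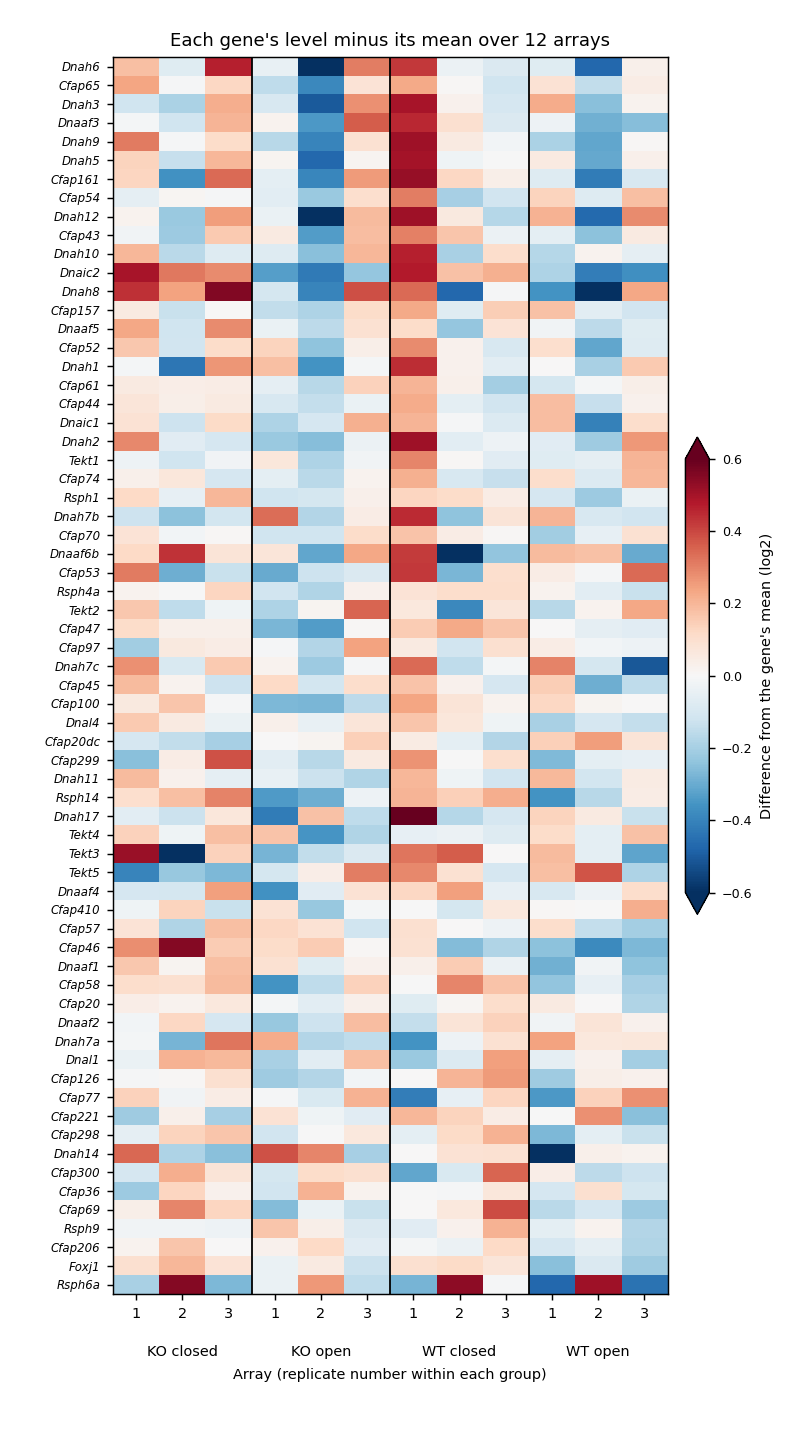
Log2 level of each of the 66 tested genes minus its own mean (colour, red above and blue below) in each of the 12 arrays, with KO closed, KO open, WT closed and WT open from left to right. Genes are ordered from top to bottom by how closely they follow the other members within groups, from Dnah6 (r = 0.91) to Rsph6a (r = -0.76), and the dynein chains at the top are high in WT closed 1 and low in KO open 2.

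The mean deviation of the members from their own means was 0.07, -0.01 and 0.08 in KO closed and -0.06, -0.16 and 0.05 in KO open samples. It was 0.18, -0.005 and 0.02 in WT closed and -0.03, -0.09 and -0.04 in WT open samples. WT closed 1 was the highest array and KO open 2 the lowest, and the sides overlapped in KO but not in WT. The within-group SD of this mean, 0.078, is close to the KO median change in size. Within inner arm chains the spread was wider, from -0.29 in KO open 2 to 0.33 in WT closed 1.

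Markers of the other cells in the tissue did not move with the members in 1 way. The 10 tested markers of respiratory secretory cells, such as Bpifa1 and Reg3g, had 0 calls over both genotypes and a median of -0.11, and Scgb1a1 lay below the filter. Of the 10 changes, 0 were positive over both genotypes, 2 in KO and 0 in WT, which is opposite in sign to most members. Their mean deviation was 0.13, -0.39 and -0.01 in KO closed, 0.25, -0.32 and 0.28 in KO open, 0.29, -0.11 and -0.48 in WT closed and 0.45, -0.30 and 0.20 in WT open samples. It was lowest in the sample numbered 2 of 3 groups and, among WT closed samples, in the sample numbered 3, and the sides overlapped in both genotypes. Their summed linear level was 20686 to 23126 in KO closed, 20592 to 25007 in KO open, 20375 to 24609 in WT closed and 21037 to 25712 in WT open samples. Of 12 mature olfactory neuron markers, 9 were higher on the closed side over both genotypes and Slc17a6 was lower (median 0.26), and all 7 immature neuron markers were lower (median -0.32). Omp, the classic mature marker, differed by 0.03 (adjusted p = 0.91, limma). Basal, sustentacular and blood markers had 0 calls of 5, 7 and 4, and 1, 0 and 3 of their changes over both genotypes were positive. The mean deviation of the sustentacular markers was -0.04, -0.03 and -0.04 in KO closed, 0.06, 0.04 and 0.07 in KO open, -0.06, -0.07 and -0.01 in WT closed and 0.10, -0.03 and 0.02 in WT open samples, so that the sides did not overlap in KO. The basal markers were highest in WT closed 1 (0.44) and the blood markers lowest in KO open 2 (-0.31), the arrays that were highest and lowest for the members. Their opposite extremes fell on other arrays, with the basal markers lowest in KO closed 2 (-0.22) and the blood markers highest in KO open 3 (0.30). The part of any of these cells in the members' values was not tested.

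**Figure D4:**
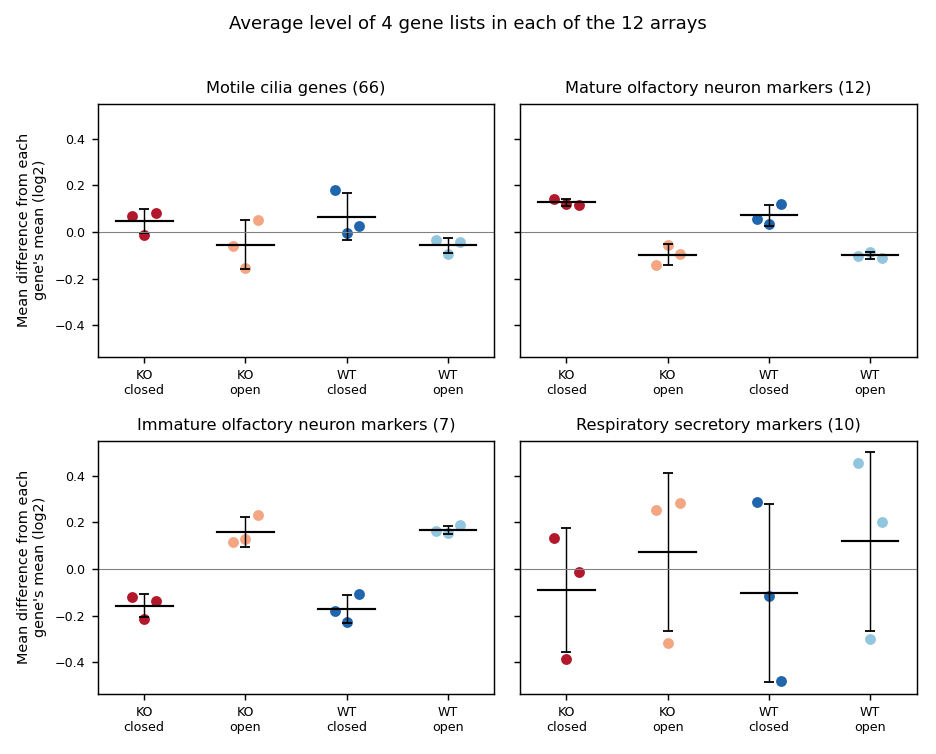
Mean log2 deviation of 4 gene lists from each gene's own mean (vertical axis, shared scale) in the KO closed, KO open, WT closed and WT open arrays. Points are arrays, lines are group means and bars are ± 1 SD (n = 3). The 66 motile cilia genes overlap between sides in KO, the mature and immature neuron markers part by side in opposite directions, and the respiratory secretory markers spread between -0.48 and 0.45 within and across groups.

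Of 57 other genes of the same machinery, in 5 lists, 4 were called higher and 1 lower on the closed side over both genotypes (1.66% of all probe sets were higher and 2.9% in either direction). The median change was 0.17, and 46 of 57 changes were positive. Kif9, a central pair kinesin, had 10.74, 10.78 and 10.77 in KO closed and 10.20, 10.26 and 10.28 in KO open samples. It had 10.75, 10.76 and 10.75 in WT closed and 10.25, 10.25 and 10.26 in WT open samples. The sides were far apart beside a spread of a few hundredths, and Kif9 rose by 0.52 in KO (adjusted p = 0.00534, limma) and by 0.50 in WT (adjusted p = 0.00718, limma). Both calls were lost when a genotype was fitted alone (adjusted p = 0.0724 in KO and 0.169 in WT). Over both genotypes the difference was 0.51 (adjusted p = 0.000206, limma), and this call was kept in every alternative.

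Efhc2, a protein of the inner doublet wall, was the gene that fell. Its levels were 8.48, 8.45 and 8.55 in KO closed and 8.86, 8.92 and 9.02 in KO open, and 8.47, 8.48 and 8.57 in WT closed and 8.90, 8.86 and 8.97 in WT open samples. Every closed array was below every open one, and the difference was -0.44 in KO (adjusted p = 0.0259, limma), -0.41 in WT (adjusted p = 0.0441, limma) and -0.42 over both (adjusted p = 0.00168, limma). The KO call was lost without any 1 of the 6 KO arrays and the WT call without any 1 of the 12 arrays, with adjusted p up to 0.134 and 0.3 over all alternatives, and the call over both genotypes was kept in all. Over both genotypes Spef2, which organises the central pair, rose by 0.34 (adjusted p = 0.00861, limma), Armc4, which docks the outer arm, by 0.33 (adjusted p = 0.0327, limma) and the transcription factor Rfx3 by 0.26 (adjusted p = 0.029, limma). The call of Spef2 was kept in every alternative. Armc4 lost its call without any 1 array but KO closed 2, KO open 3 and WT closed 3, and Rfx3 without any 1 array but KO closed 1, KO open 3 and WT closed 3. Their adjusted p reached 0.163 and 0.118 over all alternatives (limma). Of the 7 outer arm docking and assembly genes, all 7 changes were positive (median 0.24), and Armc4 was called. Of the 10 genes of ciliary transcription and basal body amplification, 5 were positive, and Rfx3 was called. Mcidas, a master regulator of multiciliated cells, differed by -0.01 (adjusted p = 0.978, limma).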

How the data were processed

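Expression was measured in 12 MOE samples, 3 in each of 4 groups. The authors processed the arrays in the Affymetrix Expression Console by sketch-quantile normalization and IterPLIER summarization, and the deposited table holds 1 log2 value for each of 35556 probe sets and each array, with 0 missing. It has 0 columns of other samples. The array annotation gave gene names. limma 3.58.1 in R 4.3.3 fitted 1 mean per group to 32615 probe sets with a mean log2 above 5 (2941 were removed), with two-sided moderated tests and Benjamini-Hochberg adjustment over all of them, a call being an adjusted p under 0.05. The methods of the study name limma and this filter over all genes for the comparison of genotypes, but adjusted the occlusion comparison over odorant receptor genes alone. About 11.5 degrees of freedom stood behind each test, and precision is limited by having 3 arrays per group (median SE over members 0.13 within a genotype and 0.093 over both). The median levels of lists are descriptions. The fit was tested on simulated data. Promoters were searched with Python 3.11.15, and figures were drawn with matplotlib 3.10.9.

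The members and lists were chosen with earlier results of these data known. Genes were named by rule: Foxj1, the 2 members of each role with the highest mean, called members, up to 6 called companion genes per contrast and, for a contrast without calls, the 3 members with the lowest p. Others (Cfap47, Cfap20dc, Cfap58, Rsph1, Dnaic1, Dnal1, Dnal4, Dnah9, Dnah10, the Dnah7 copies, Mcidas, Omp and the genes beside Dnaic2 and Rsph14) were named after their values were seen. So were Cfap65, Dnaaf3 and Cfap206, for how closely they ran with or against the other members. Alternatives were other filters, fits and normalizations, a mean over a gene's probe sets, the replicate block, subsets of groups, each of the 12 arrays left out in turn, and 1 setting added after seeing the data.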

Additional observations from a re-analysis of the deposited data

How the results depend on the processing

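With 3 arrays per group, calls in a single genotype rested on few arrays. The number of members called in WT was 1 and became 0 with the replicate block, with only the 6 WT arrays and without KO open 2 and WT closed 1 together (added after seeing the data), and was 0 to 1 with 1 array left out. In KO it was 1 and became 0 with only the 6 KO arrays and in the added setting, and was 0 to 1 with 1 array left out. Over both genotypes it was 2, and became 5 with a mean log2 above 7 and with trend and robust fitting, 1 in the added setting, and 1 to 4 with 1 array left out (4 without KO open 3: Dnaic2, Rsph14, Cfap47 and Cfap58). With the replicate block the counts were 0 in WT, 1 in KO and 2 over both, and calls of Dnaic2 (adjusted p = 0.0642, limma) and Ttyh2 in WT, of Kif9 and Efhc2 in either genotype and of Rfx3 over both were lost, but no other call. Same-numbered closed and open samples deviated together with r from -0.00903 to 0.233 and have no stated common source, so the numbers were not taken as pairs. The median KO minus WT difference on the open side was 0.01, and -0.0872 to 0.0595 with 1 array left out, the lowest without KO open 3. Small uncalled changes over both genotypes turned negative when 1 array was left out: Dnaaf2 (-0.0142 to 0.0885), Rsph9 (-0.00654 to 0.0633), Tekt1 (-0.0331 to 0.0655), Tekt4 (-0.0145 to 0.117) and Rsph6a (-0.0192 to 0.272). In the added setting Dnah3 (-0.0774), Tekt1 (-0.0674) and Tekt4 (-0.0161) did so. The cause was not tested. No filter, array weights, quantile normalization and averaging of probe sets changed no call named here, and median centring ended the WT call of Efhc2.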
